A study of Mus musculus with 5 samples.

Results

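The Runx3 and H3K4me1 ChIP-seq lists of IL-2-activated CD8-TC (CD8+ T cells) were examined at 9 genes that encode the inhibitory receptors and the CD28 family members of T cells, namely Cd28, Icos, Ctla4, Pdcd1, Btla, Cd160, Lag3, Havcr2 and Tigit. They are 9 of the 22350 protein-coding genes on the chromosomes that carried called regions. Every called region that shared at least 1 bp with the annotated gene body or with the 30 kb on either side of it was taken. This gave 26 of the 9135 Runx3-bound regions and 46 of the 18992 H3K4me1-marked regions. The cells were splenic CD8-TC of ICR mice, isolated on anti-CD8 magnetic beads, TCR-activated for 2 days with anti-CD3e and soluble anti-CD28, and then cultured for 4 days in 100 u/ml IL-2. ChIP was done with anti-Runx3 antibody (2 libraries), anti-H3K4me1 antibody (1 library in the labels) and, as control, non-immune serum (NIS, 2 libraries). All libraries came from cells treated alike, so the data hold no untreated cells and no second condition. Triggering of CD28 during activation was common to every library.

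CD28 is the founding costimulatory receptor of T cells. It binds CD80 and CD86 on antigen-presenting cells and amplifies the TCR signal, and ICOS is its relative that appears after activation. CTLA-4 binds the ligands of CD28 more tightly and restrains the response, whereas PD-1, encoded by Pdcd1, recruits a tyrosine phosphatase that dampens signalling. BTLA and CD160 bind the TNF receptor family member HVEM, LAG3 binds MHC class II, TIGIT binds the poliovirus receptor, and TIM-3, encoded by Havcr2, marks chronically stimulated T cells. Runx3, which binds DNA through its RUNX domain, helps to shape the cytotoxic lineage, and H3K4me1 is a histone modification abundant at enhancers and on the flanks of active promoters.

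The deposited lists gave only the position of each region, called once per antibody on joined reads. No value below therefore has a replicate error, no test was possible, and the read depth behind a region is unknown. Shares of regions are given with 95% Wilson intervals, which cover counting error among regions only. The label of the cells was compared with marker genes by counting those with an H3K4me1-marked region in the gene or within 5 kb. All 8 CD8 T cell genes had one (25 regions at Cd8a, Cd8b1, Cd3e, Cd3d, Cd3g, Gzmb, Prf1 and Ifng). The mark was also called at the B cell genes Cd79a and Pax5, and not at Ms4a1. It was called at 1 of 4 myeloid and dendritic cell genes (Itgax, with none at Csf1r, Cd14 and Lyz2) and at 1 of 2 NK cell genes (Klrb1c, with none at Ncr1). The part of other cells in the regions described here was not tested.

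Runx3-bound regions are named below by gene and by order along the chromosome. At 6 of the 9 genes a Runx3-bound region overlapped the 500 bp on either side of an annotated transcription start site (TSS). The same was true of 9.87% of all protein-coding genes. At the 6 genes the centre of the region was also within 500 bp. This distance was chosen after the data were seen. The stretches of 100 bp with most RUNX motifs in these 6 regions, clear of annotated exons, are shown to make the motif visible where Runx3 bound next to a TSS. They are read from the plus strand of mm9 and written 5′ to 3′. Capitals mark the RUNX hexamers, searched on both strands. They are TGTGGT, which reads ACCACA when it lies on the minus strand, TGTGGC, which then reads GCCACA, and the rarer variants with C as the third base, TGCGGT and also TGCGGC.
Cd28 2, chr1:60803102-60803201: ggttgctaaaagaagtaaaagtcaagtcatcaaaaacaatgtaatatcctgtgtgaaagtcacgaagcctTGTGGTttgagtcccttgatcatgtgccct
Icos 1, chr1:61034639-61034738: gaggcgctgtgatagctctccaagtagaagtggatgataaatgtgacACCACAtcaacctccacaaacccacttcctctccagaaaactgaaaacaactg
Btla 2, chr16:45224225-45224324: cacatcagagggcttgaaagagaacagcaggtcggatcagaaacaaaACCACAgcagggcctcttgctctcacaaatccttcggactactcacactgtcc
Cd160 1, chr3:96618493-96618592: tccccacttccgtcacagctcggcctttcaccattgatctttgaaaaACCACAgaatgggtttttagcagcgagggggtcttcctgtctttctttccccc
Tigit 2, chr16:43664353-43664452: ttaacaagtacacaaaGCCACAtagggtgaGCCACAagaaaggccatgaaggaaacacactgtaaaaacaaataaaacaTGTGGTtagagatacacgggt
Lag3 2, chr6:124860606-124860705: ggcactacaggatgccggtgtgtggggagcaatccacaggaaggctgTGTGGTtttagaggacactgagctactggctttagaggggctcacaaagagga
The hexamer was centred 28 bp upstream of the TSS of Cd28-001, 83 bp upstream of that of Icos, 154 bp upstream of that of Btla and 98 bp upstream of the inner TSS of Cd160. At Tigit, whose gene runs on the minus strand, the 3 hexamers shown were 74, 88 and 137 bp upstream of the TSS. The Lag3 window lay inside the gene, in intron 2 of Lag3-001, and is upstream only of the noncoding transcript Lag3-002. Its hexamer was 586 bp upstream of the TSS of Lag3-002, which is beyond 500 bp. The other hexamer of Lag3 2, 160 bp upstream of that TSS, is not in the window. When the TSSs of protein-coding transcripts alone were used, 5 genes kept a region within 500 bp and Lag3 did not, against 9.35% of all protein-coding genes. Within 1 kb of any TSS there were again 6 genes, against 11.0%.

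All 9 genes had at least 1 Runx3-bound region within the extended gene body, as did 39.6% of all protein-coding genes. All 9 also had at least 1 H3K4me1-marked region, compared with 44.6% of all protein-coding genes. A Runx3-bound region that overlapped an H3K4me1-marked region was found at 8 of the 9 genes, Icos being the exception, compared with 21.5% of all protein-coding genes. The median was 3 Runx3-bound and 4 H3K4me1-marked regions per gene, and 0 of both over all protein-coding genes. The extended gene bodies were 67.3 to 116.6 kb long with a median of 86.3 kb, which is longer than the median of 75.4 kb over all genes, and a longer stretch can hold more regions. These shares describe the 9 genes beside the background and were not tested.

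**Figure D1:**
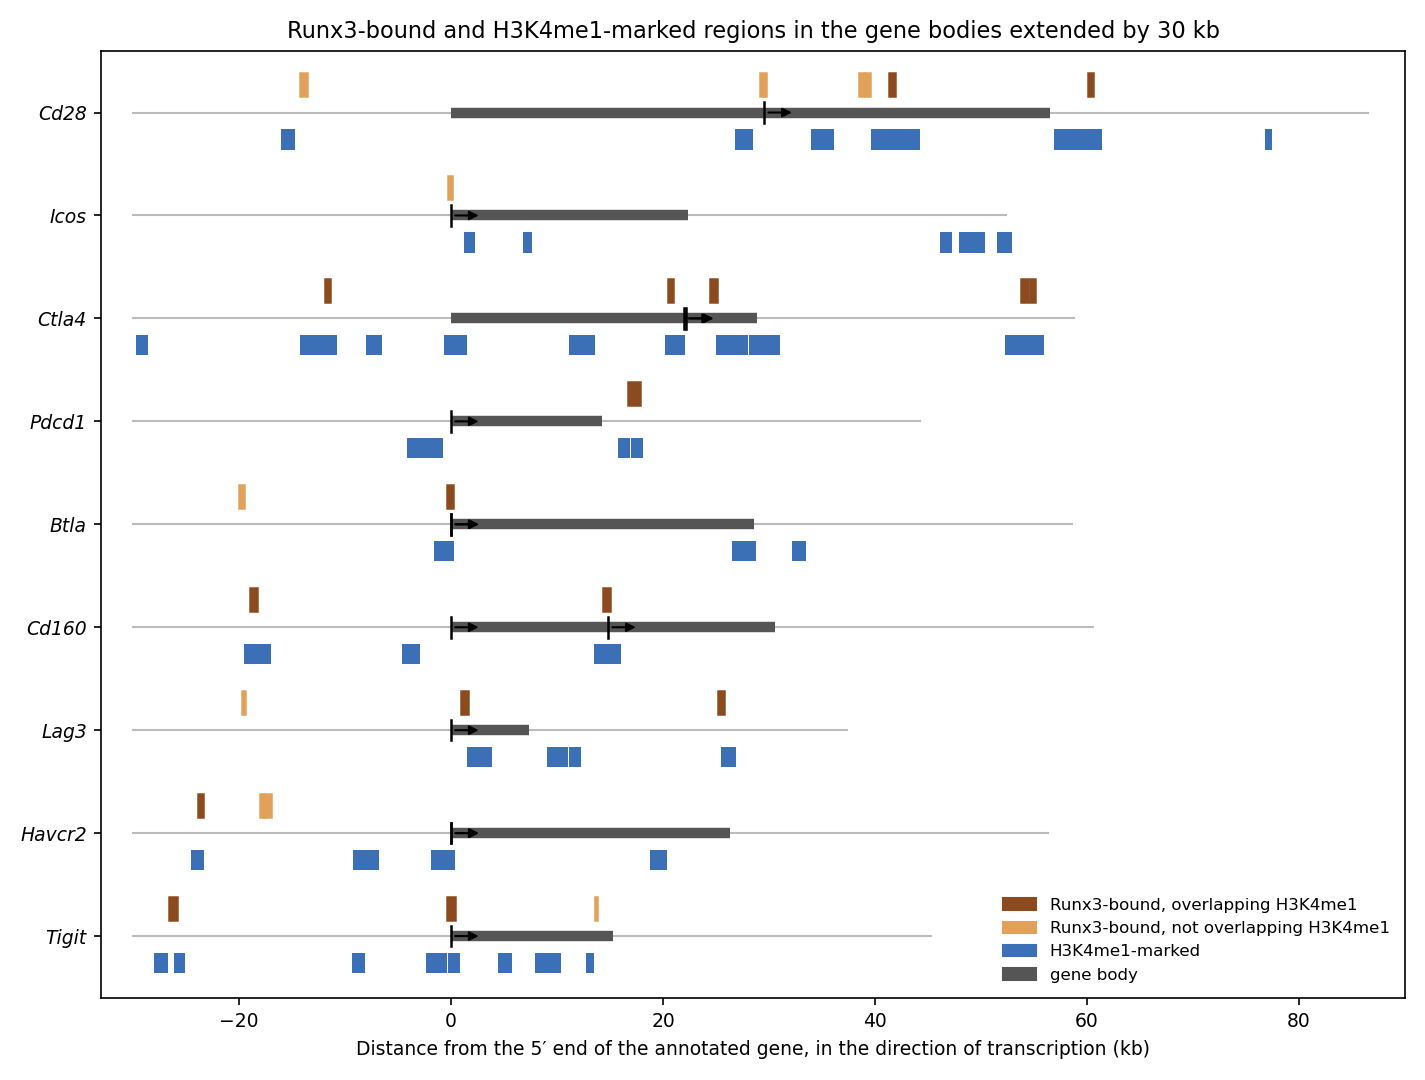
Positions of the 26 Runx3-bound regions (brown where they overlap H3K4me1, orange where they do not, above each line) and of the 46 H3K4me1-marked regions (blue, below) at the 9 genes. The x axis gives the distance in kb from the 5′ end of the annotated gene in the direction of transcription, the grey bar is the gene body, the thin line its extension by 30 kb, and arrows stand at the TSSs of protein-coding transcripts. Regions stand at an arrow at Cd28, Icos, Btla, Cd160 and Tigit, and none stands in the gene bodies of Pdcd1 and Havcr2.

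The costimulatory receptor gene Cd28 (ENSMUSG00000026012.2, chr1:60773644-60830203, plus strand) had 6 Runx3-bound regions, the most of the 9 genes. Only 0.747% of protein-coding genes had at least as many, although the extended gene body of Cd28, at 116.6 kb, was also the longest of the 9. The annotated gene begins with a noncoding transcript far upstream, and the protein-coding transcript Cd28-001 starts at position 60803202. With the gene body of that transcript alone, 5 Runx3-bound regions remained. Cd28 1 (chr1:60759432-60760076) was intergenic, 13.89 kb upstream of the noncoding TSS. Cd28 2 (chr1:60802829-60803356) touched exon 1 of Cd28-001 and was centred 110 bp upstream of its TSS. Cd28 3, Cd28 4 and Cd28 5 lay in intron 1, 9.12, 9.68 and 12.0 kb downstream of the nearest TSS, that of the noncoding transcript Cd28-002, and Cd28 6 (chr1:60833779-60834192) lay 3.78 kb past the gene end.

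The marks at Cd28 stood beside the Runx3-bound regions more often than on them. Cd28 5 was contained in a mark of 4650 bp (chr1:60813257-60817906), the widest at any of the 9 genes, and Cd28 6 in a mark of 4503 bp. The other 4 regions did not overlap a mark, but the nearest mark edge was 489 bp away for Cd28 1, 652 bp for Cd28 2, 666 bp for Cd28 3 and 88 bp for Cd28 4. Of the 6 marks at Cd28, which covered 12.9% of the extended gene body, 2 held a Runx3-bound region. Cd28 3 held 2 RUNX hexamers in inward orientation with 7 bp between them, and its window is shown because it was among the closest pairs at the 9 genes.
Cd28 3, chr1:60812381-60812480: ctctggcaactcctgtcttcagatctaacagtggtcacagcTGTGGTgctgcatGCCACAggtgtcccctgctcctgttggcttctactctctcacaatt

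Icos (ENSMUSG00000026009.8, chr1:61034771-61057164, plus strand), the costimulatory receptor induced by activation, had a single Runx3-bound region, Icos 1 (chr1:61034440-61034858). It was 419 bp wide, touched exon 1 and was centred 122 bp upstream of the TSS. The gene had 5 H3K4me1-marked regions, 2 in intron 1 and 3 beyond the gene end, and none of them overlapped Icos 1. The nearest began 1167 bp from its edge. Having at least 1 Runx3-bound region was shared with 39.6% of protein-coding genes, so that the number of regions at Icos did not set the gene apart from the background.

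Ctla4 (ENSMUSG00000026011.6, chr1:60943844-60972676, plus strand), the inhibitory counterpart of Cd28, lies between Cd28 and Icos. It had 5 Runx3-bound regions, and each of them overlapped a mark. With 10 H3K4me1-marked regions that covered 25.1% of its extended gene body, it was the most heavily marked of the 9 genes, and 0.801% of protein-coding genes had as high a cover. The noncoding 5′ TSS and the TSS of the protein-coding transcript Ctla4-001, at position 60965869, both lay within marks. Ctla4 1 (chr1:60931957-60932446) was 11.6 kb upstream of the noncoding TSS, and Ctla4 2 (chr1:60964349-60964816) was 1.29 kb upstream of the protein-coding TSS. Ctla4 3 (chr1:60968271-60968986) lay in intron 1 of Ctla4-001, with 24.6% of its length in a mark. Ctla4 4 and Ctla4 5 lay in the same mark of 3674 bp (chr1:60996095-60999768), 25.3 and 26.1 kb past the gene end. With the gene body of the protein-coding transcripts only, which is 6.81 kb long, 4 Runx3-bound and 8 H3K4me1-marked regions remained. The windows of Ctla4 1 and Ctla4 3 are shown as examples of several RUNX hexamers away from a TSS.
Ctla4 1, chr1:60932154-60932253: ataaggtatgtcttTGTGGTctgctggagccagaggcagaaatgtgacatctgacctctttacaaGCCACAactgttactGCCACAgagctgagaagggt
Ctla4 3, chr1:60968601-60968700: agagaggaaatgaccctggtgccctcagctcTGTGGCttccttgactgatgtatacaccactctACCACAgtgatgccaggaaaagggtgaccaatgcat
In Ctla4 1 the last 2 of its 3 hexamers had the same orientation with 9 bp between them. In Ctla4 3 the 2 hexamers faced each other with 27 bp between them, and the whole region held 9 ETS motifs, the most of the 26 regions.

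The stretch from the 5′ end of Cd28 to the 3′ end of Icos spans 283.5 kb and held 11 Runx3-bound and 20 H3K4me1-marked regions in all. In the 53.6 kb between the extended gene bodies of Cd28 and Ctla4 there were 0 Runx3-bound regions and 3 H3K4me1-marked regions. Along this chromosome all 5 regions of Ctla4 overlapped the mark, as did 2 of 6 at Cd28 and 0 of 1 at Icos. The share over all Runx3-bound regions was 57.3%. The unmarked regions at Cd28 were only 88 to 666 bp from a mark edge, and Icos had a single region. A difference between the 3 genes was not tested.

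Pdcd1 (ENSMUSG00000026285.6, chr1:95934884-95949130, minus strand), which encodes the PD-1 receptor, had 0 Runx3-bound regions in the gene body and 1 in its extension. Pdcd1 1 (chr1:95931287-95932411) was 3.04 kb past the gene end, and the nearest TSS of a protein-coding gene was that of Neu4, a sialidase gene, 13.7 kb away. At 1125 bp it was the widest of the 26 regions, and 99.2% of all Runx3-bound regions were no wider. It lay across 2 marks, which covered 91.5% of it, and bridged the gap between them. It held 7 RUNX hexamers, 4 of which fall in the window shown.
Pdcd1 1, chr1:95931848-95931947: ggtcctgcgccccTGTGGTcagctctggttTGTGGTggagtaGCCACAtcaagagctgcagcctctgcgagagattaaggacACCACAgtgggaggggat
The first 3 of these stood 11 bp and 6 bp apart. Upstream of the Pdcd1 TSS, a mark of 3398 bp (chr1:95949879-95953276) began 749 bp from the TSS and held no Runx3-bound region.

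Btla (ENSMUSG00000052013.7, chr16:45224428-45253008, plus strand), the HVEM-binding relative of the CD28 family, had 2 Runx3-bound regions. Btla 2 (chr16:45224051-45224570) touched exon 1, was centred 118 bp upstream of the TSS and was contained in a mark of 1884 bp that also held the TSS. Btla 1 (chr16:45204448-45204921) was intergenic, 19.7 kb upstream, and its edge was 17893 bp from the nearest mark. It was the only region of the 26 with an AP-1 motif within 50 bp of a RUNX hexamer.

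Cd160 (ENSMUSG00000038304.8, chr3:96602686-96633274, minus strand), which encodes the other HVEM-binding receptor, also had 2 regions, both contained in marks. Cd160 1 (chr3:96618275-96618898) was centred 142 bp upstream of the inner TSS, that of Cd160-001, and lay in intron 1 of the transcripts from the outer TSS. Neither a Runx3-bound region within 500 bp nor a mark was found at the outer TSS. Cd160 2 (chr3:96651553-96652295) lay in intron 1 of the neighbouring gene Pdzk1, a scaffold protein gene, and held 6 RUNX hexamers.

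Lag3 (ENSMUSG00000030124.2, chr6:124854379-124861723, minus strand), the MHC class II-binding inhibitory receptor, is the shortest of the 9 genes, and its extension reaches its neighbours. Of the 3 Runx3-bound regions, Lag3 1 (chr6:124835959-124836552) lay in intron 1 of Cd4, held 6 RUNX hexamers and was 45.1% covered by a mark. It was 1.96 kb from the TSS of Cd4 and 18.1 kb past the end of Lag3. In resting CD8-TC the authors reported Runx3 at the Cd4 silencer, which is in the same intron. Whether Lag3 1 is that element, and whether it acts on Lag3, was not tested. Lag3 3 (chr6:124881193-124881495) stood at the TSS of Mlf2, had a GC content of 73.9% and was the only one of the 26 regions with 0 RUNX hexamers. Lag3 2 (chr6:124860125-124860783) lay within Lag3 and touched exons 2 and 3 of Lag3-001, 1.27 kb downstream of its TSS. A mark of 2336 bp in the middle of the gene overlapped 11.4% of it.

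Havcr2 (ENSMUSG00000020399.8, chr11:46268437-46294757, plus strand), which encodes TIM-3, had 0 Runx3-bound regions in its gene body. All 3 regions of the extension were nearest to the TSS of Med7, a Mediator subunit gene. Havcr2 2 (chr11:46250368-46250795) lay at that TSS and Havcr2 3 in intron 1 of Med7, both without a mark, and Havcr2 1 was marked and 5.66 kb upstream of Med7. The Runx3-bound region closest to the Havcr2 TSS was centred 17.3 kb upstream of it. The TSS itself lay in a mark of 2234 bp (chr11:46266537-46268770) without a Runx3-bound region, and another mark was found in intron 5 of Havcr2-001. Pdcd1 and Havcr2 were the 2 genes of the 9 with no Runx3-bound region in the gene body, and none of the 4 regions assigned to them had a member as its nearest TSS.

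Tigit (ENSMUSG00000071552.4, chr16:43648974-43664297, minus strand), the receptor for the poliovirus receptor, had 3 Runx3-bound and 8 H3K4me1-marked regions, and the marks covered 15.0% of the extended gene body. Tigit 2 (chr16:43663891-43664688) was centred 8 bp from the TSS, was 798 bp wide and held 7 RUNX hexamers. It bridged the gap between a mark over the TSS and a mark upstream of it, which together covered 93.5% of it. Tigit 3 (chr16:43690166-43690958), 26.3 kb upstream, was 29.5% covered by a mark and held 4 hexamers. Its closest pair faced inward with 4 bp between them, the smallest gap at the 9 genes.
Tigit 3, chr16:43690389-43690488: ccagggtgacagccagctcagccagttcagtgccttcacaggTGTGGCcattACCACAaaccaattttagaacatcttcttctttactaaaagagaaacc
Tigit 1 (chr16:43650551-43650741), in intron 3, was 191 bp wide, the narrowest of the 26, and 0.0657% of all Runx3-bound regions were no wider. Its edge was 67 bp from a mark.

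**Figure D2:**
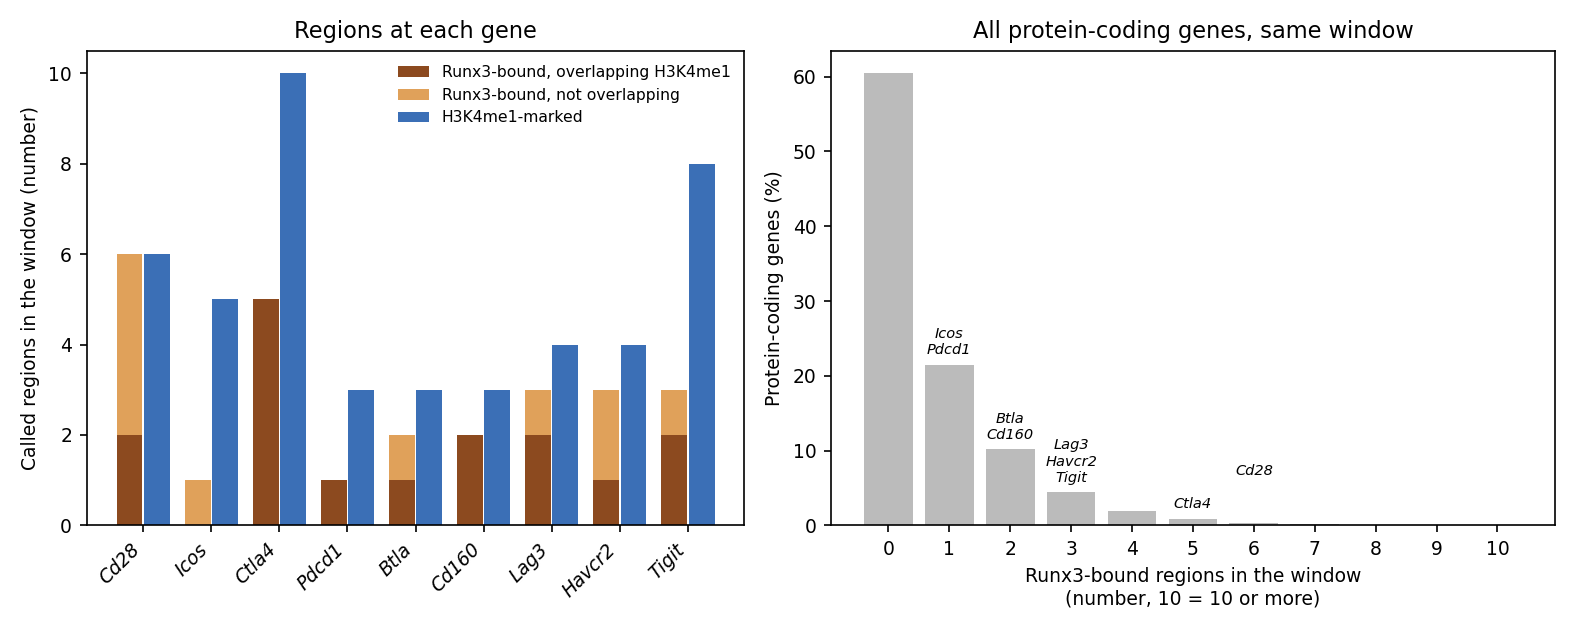
Left, number of called regions in the extended gene body of each of the 9 genes, with Runx3-bound regions split by overlap with H3K4me1. Right, percent of all 22350 protein-coding genes by number of Runx3-bound regions in the same kind of window, with the 9 genes written above their number. Cd28 (6 regions) and Ctla4 (5) stand to the right, and Icos and Pdcd1 (1 each) are the lowest of the 9.

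In the order of their number of Runx3-bound regions, Cd28 (6) and Ctla4 (5) came first, then Lag3, Havcr2 and Tigit (3 each), Btla and Cd160 (2 each), and Icos and Pdcd1 (1 each). Over all protein-coding genes, 1.62% had at least 5 regions, 7.92% at least 3 and 18.1% at least 2, with up to 48 at a gene. In H3K4me1-marked regions the order was Ctla4 (10), Tigit (8), Cd28 (6), Icos (5), Lag3 and Havcr2 (4 each) and Pdcd1, Btla and Cd160 (3 each). The 7 inhibitory receptor genes held 19 Runx3-bound regions, 14 of them marked, and the 2 costimulatory genes held 7, of which 2 were marked. Of the 14, 5 were at Ctla4, and of the 7, 6 were at Cd28. Over all Runx3-bound regions 57.3% were marked, and a difference between the 2 groups of genes was not tested. Each of these counts comes from 1 list, so neighbours in these orders cannot be separated by a replicate error. Of the 26 regions, 19 were nearest to the TSS of one of the 9 genes and 7 to that of another gene, namely Neu4, Pdzk1, Cd4, Mlf2 and Med7. These 7 regions were all at inhibitory receptor genes.

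Overlap with H3K4me1 was found for 16 of the 26 Runx3-bound regions, or 61.5% (interval 42.5 to 77.6%). Over all Runx3-bound regions the share was 57.3% (5234 regions), which is within that interval. Of the 16, 10 lay wholly inside marks and 6 in part, and of the 10 without overlap 5 were less than 1 kb from a mark. Read from the other list, 17 of the 46 H3K4me1-marked regions (37.0%) held a Runx3-bound region, compared with 29.2% of all H3K4me1-marked regions. Regions within 1 kb of a TSS were marked in 4 of 9 cases and those more than 5 kb away in 9 of 14. For the counts by distance from a TSS or from a mark, no share over all Runx3-bound regions is given. They therefore cannot show a trait of these genes. The widths were close to those of the whole lists, with a median of 524 bp for Runx3 (521 bp over all) and 1662 bp for H3K4me1 (1592 bp over all).

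The 26 regions held 61 RUNX hexamers, comprising 38 of TGTGGT, 20 of TGTGGC, 1 of TGCGGT and 2 of TGCGGC. Of these, 35 (57.4%) were within 100 bp of the centre of their region. A share over all Runx3-bound regions is not given for this, and a narrow region such as Tigit 1 (191 bp) can hold hexamers only there. At least 1 hexamer was harbored by 25 of the 26 regions, or 96.2% (interval 81.1 to 99.3%), compared with 92.6% of all Runx3-bound regions. In the central 200 bp the shares were 84.6% and 78.8%. The single TGCGGT was in Havcr2 2, at the TSS of Med7, and the 2 TGCGGC were in Pdcd1 1 and Cd160 2. At least 6 hexamers were found in 4 regions, namely Pdcd1 1, Cd160 2, Lag3 1 and Tigit 2, and in 3.53% of all Runx3-bound regions. Of these 4 regions, only Tigit 2 was nearest to the TSS of the gene it is named after. The nearest TSS was that of Neu4 for Pdcd1 1, of Pdzk1 for Cd160 2 and of Cd4 for Lag3 1. Whether many hexamers are a trait of the receptor genes was not tested. At least 3 hexamers were found in 8 regions (30.8%), compared with 38.1% of all. These 8 regions all overlapped a mark. Marked regions were also wider, with a median of 621 bp against 459 bp in the unmarked, and a wider region can hold more hexamers. The part of width in this difference was not tested. The limits of 3 and 6 hexamers were chosen after the data were seen.

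**Figure D3:**
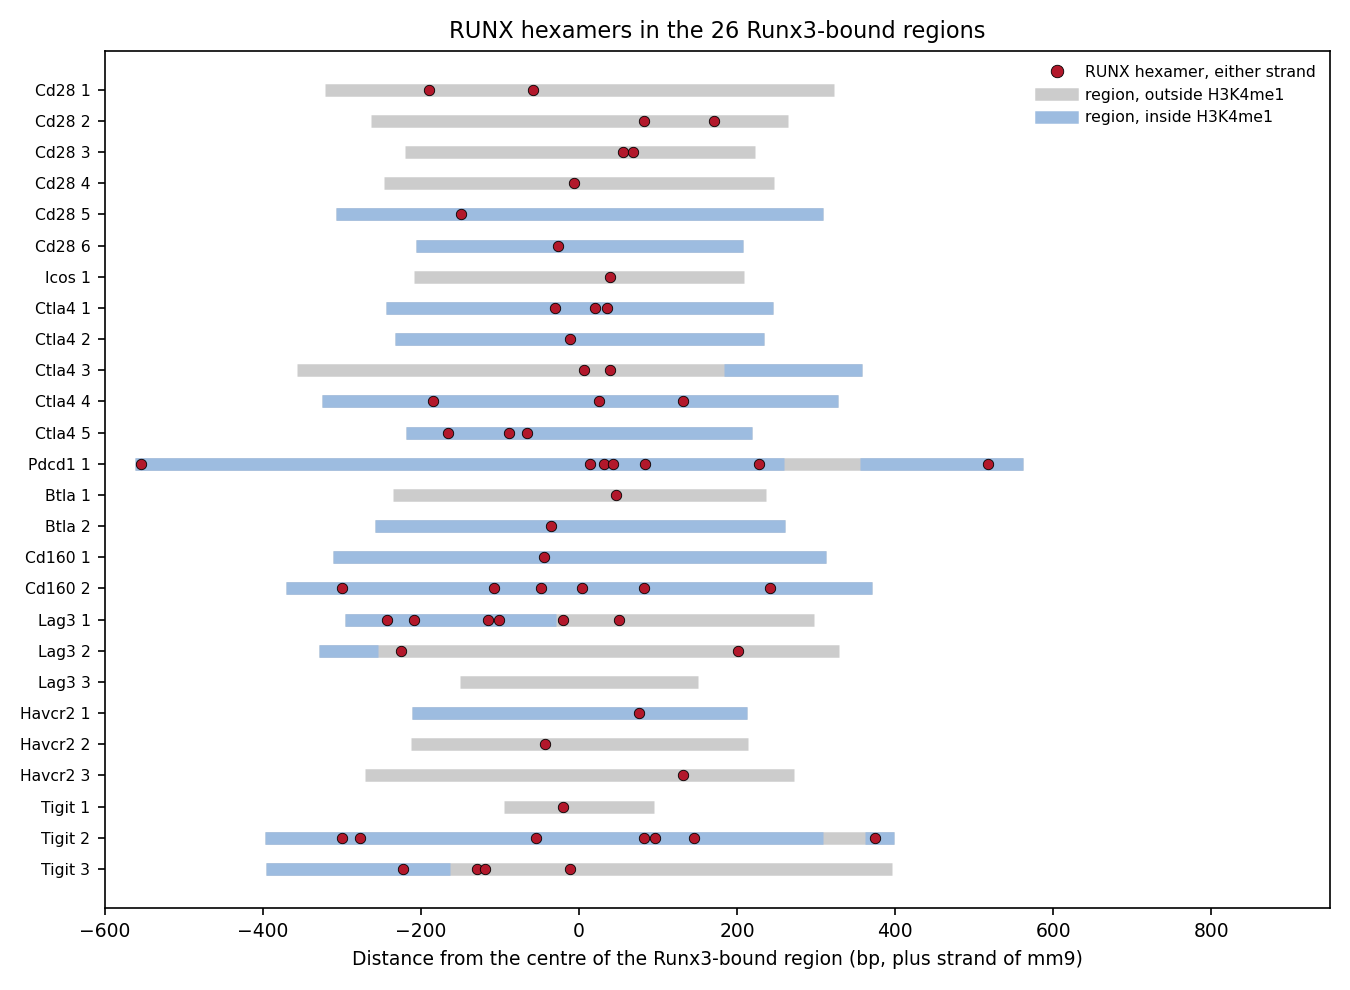
RUNX hexamers (red points, either strand) in the 26 Runx3-bound regions, drawn as bars to scale by distance in bp from the centre of the region, in blue where an H3K4me1-marked region covers them and grey elsewhere. Of the 61 points, 35 lie within 100 bp of the centre, Lag3 3 has none, and the blue parts of Ctla4 3, Lag3 1, Lag3 2 and Tigit 3 cover one end of the region only.

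Motifs of factor families that are known to act with RUNX proteins in T cells were counted in the same regions, on both strands. The words for ETS factors were AGGAAA, the same with a last G (AGGAAG), and both with C as the first base (CGGAAA or else CGGAAG). AP-1 was searched as TGACTCA or its reverse complement TGAGTCA, T-box factors as GGTGTGA and NFAT as TGGAAA. The ETS words that end in A share the letters GGAAA with the NFAT word and differ in the base before them. In the whole regions ETS words were found in 24 regions (92.3%, against 88.9% of all Runx3-bound regions), NFAT in 10 (38.5%, against 35.6%), T-box in 5 (19.2%, against 11.3%) and AP-1 in 3 (11.5%, against 13.5%). In modules, a RUNX hexamer and the second motif were at most 50 bp apart. ETS-RUNX was found in 16 regions (61.5%, against 57.4%), RUNX-RUNX in 9 (34.6%, against 37.4%) and NFAT-RUNX in 5 (19.2%, against 13.2%). T-box-RUNX was found in 2 (7.69%, against 4.76%) and AP-1-RUNX in 1 (3.85%, against 5.78%). Each share of all regions was within the interval of the share at the 9 genes. Of the 5 regions with an NFAT-RUNX module 3 were at Cd28, and the T-box-RUNX modules were in Ctla4 1 and Cd160 2. Pairs of RUNX hexamers at most 20 bp apart, a limit chosen after the data were seen, were in 7 regions (26.9%), compared with 21.6% of all.

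**Figure D4:**
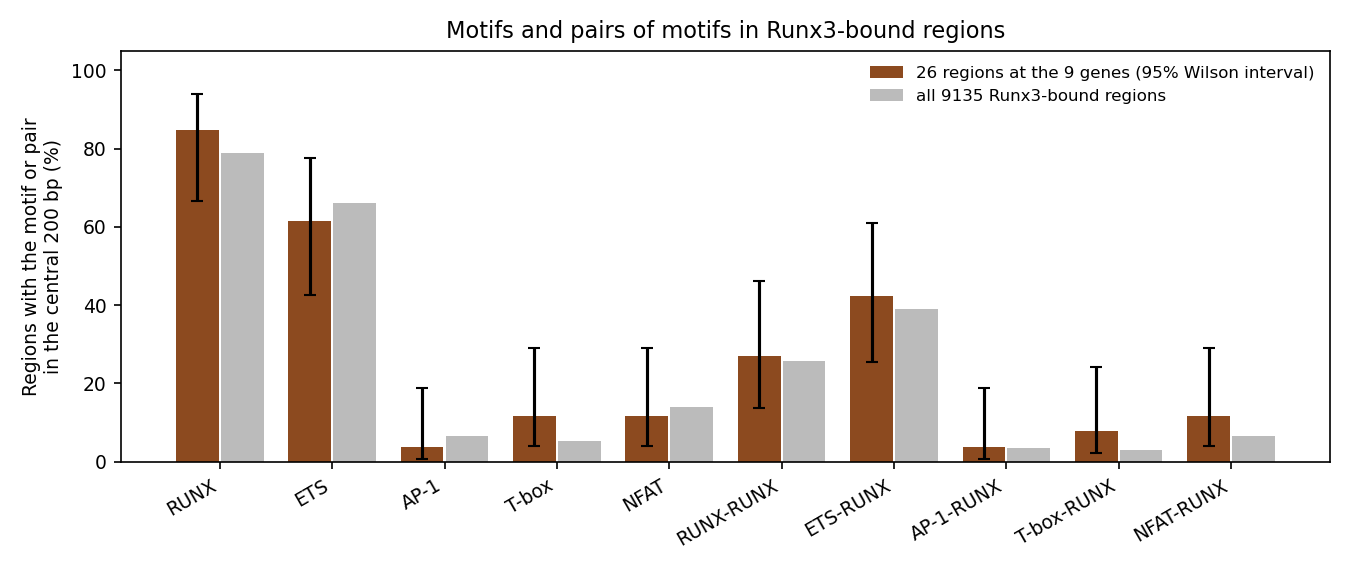
Percent of Runx3-bound regions with each motif, or module of 2 motifs at most 50 bp apart, in the central 200 bp. Brown bars are the 26 regions at the 9 genes with 95% Wilson intervals and grey bars all 9135 Runx3-bound regions. The RUNX share was 84.6% at the 9 genes and 78.8% over all, and every grey bar falls within the interval beside it.

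The other genes of the pathway were counted in the same way. Among 14 ligand genes, 9 had a Runx3-bound region in the extended gene body and 5 had none, with a median of 1. The most were at Cd86 (4), which encodes a ligand of CD28 and CTLA-4, Pdcd1lg2 (3), which encodes a ligand of PD-1, and Pvr (3), the poliovirus receptor gene. Cd80, Pvrl2, Pvrl3, Ceacam1 and Clec4g had 0. Among 15 other co-receptor genes, 13 had a region and Havcr1 and Timd4, relatives of Havcr2, had none. The most were at Cd226 (5), which encodes the activating competitor of TIGIT, Pecam1 (5) and Cd5 (4), and the median was 2. Among 20 signalling and trafficking partners, 18 had a region and Ptpn2 and Sh2d1a had none, again with a median of 2. Grap2, an adaptor that binds CD28, had 7 regions, and Fyn, a Src family kinase, had 6. The median extended gene bodies of the ligand, co-receptor and partner genes were 81.3, 91.4 and 111.8 kb long. The median of 3 regions at the 9 genes was above the medians of these lists, a difference for which there is no test.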

How the data were processed

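ChIP-seq of IL-2-activated CD8-TC had been done with anti-Runx3, anti-H3K4me1 and NIS. ELAND had been used by the authors for alignment to mm9. From the uniquely aligned reads, pooled over repeats, they called peaks by MACS with NIS as background and the larger read set scaled to the smaller one. Joining hides the spread between repeats, and unique alignment leaves repeated sequence uncalled. The deposited BED lists give peak positions with 0 columns of scores, so a stricter threshold could be set only by width. The labels' protocol mentions 2 replicates for both antibodies, while 1 H3K4me1 library is labelled.

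BED starts were raised by 1 so that positions count from 1. Genes and TSSs were those of GENCODE vM1 on NCBIM37, which is mm9. RefSeq promoter sequences for GRCm38.p6 were placed on mm9 by exact match for 6 of the 9 genes. No sequence of Cd28, Icos or Lag3 was used from that table. The distance of a region is that of its centre, and distances between regions and marks are edge to edge. Genes were counted as having a region within 500 bp or 1 kb of a TSS when at least 1 bp of it lay there. All 9 genes were named with all their Runx3-bound regions and the gene of the nearest TSS, and up to 3 genes of each pathway list with most regions. Some genes of the marker and partner lists are not reported here. Bat3 of the partner list is Bag6 in GENCODE vM1. Printed windows are the 100 bp of a region with most RUNX hexamers, clear of annotated exons. The members, lists and limits were chosen with earlier results of these data known.

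Scripts ran in Python 3.11.15 with matplotlib 3.10.9 for plots, pandas 2.3.3 and NumPy 2.4.6 for counts and SciPy 1.17.1 for intervals. Overlap, motif and module functions were tested on simulated data and had 0 differences from direct counting. Alternatives were other extensions, region centres, wide regions only, nearest TSS, stricter overlap, merged marks, the central 200 bp and other gene sets.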

Additional observations from a re-analysis of the deposited data

How the results depend on the processing

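Of 37 alternative values of 7 results, 26 stayed within the limit set for a change and 11 did not. The number of Runx3-bound regions was 12 with no extension of the gene body, 14 with 10 kb and 13 with regions at least as wide as the median of their list. The number of H3K4me1-marked regions was 21 with no extension and 24 with the wider regions. The share of regions with a RUNX hexamer was 100% with 10 kb and with regions whose nearest TSS was that of a member. The share of genes with a Runx3-bound region was 32.5% over all annotated genes, 40.8% on autosomes, 27.5% with 10 kb and 47.9% with 50 kb. Across the extensions, gene bodies and region choices tried, 7 to 9 of the 9 genes had a Runx3-bound region, and 46.2 to 65.5% of the regions overlapped H3K4me1, the lowest when at least 50% of the region had to be covered.

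No paired analysis was possible because the reads of the repeats had been joined before the lists were made, which also prevented leaving out a library. The lists carry no read numbers, so regions not called cannot be told apart from regions missed at this depth. Gene bodies from protein-coding transcripts, distances of 500 bp and 1 kb from a TSS and TSSs of protein-coding transcripts only were chosen after seeing the data.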
